A study of Mus musculus with 6 samples.

Results

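Keratins and claudins are 2 gene families of epithelial and other lining cells, and here they were read in cells sorted from the colonic myenteric layer, where enteric neurons and glia lie between sheets of muscle. The members were the genes of the array whose symbol was Krt or Cldn followed by digits alone, and a gene with several probe sets was read from the brightest on average. This gave 64 genes of the 18193 with a single symbol, 44 keratins and 20 claudins. Choice by symbol used no measured value. The members carried 85 probe sets in all, and 14 genes had more than 1.

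The cells came from the colon of mice of the strain Mapttm1(EGFP)Klt/J, in which EGFP is expressed from the Mapt locus, the gene of the neuronal microtubule protein tau. The labels name 3 libraries of Mapt-EGFP+ colonic neurons and 3 of Mapt-EGFP- myenteric cells, separated by fluorescence. Both groups came from mice of this allele, and the treatment was the same in both: a fluorescent cholera toxin subunit B was injected into the celiac ganglion under pentobarbital, and the animals were killed 3 to 4 days later. Each library pooled cells of 2, 4 or 6 mice, without a label saying which library held how many. The sources used here gave neither the age of the mice nor the number of copies of the allele.

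Keratins are the intermediate filaments of epithelia and assemble as pairs of a type I and a type II protein. Krt8 (type II) with Krt18 or Krt19 (type I) fills single-layered linings, which include the gut mucosa and the mesothelium, the sheet that covers the outer surface of the gut. Claudins span the membrane at tight junctions and set what passes between neighbouring cells: Cldn3 and Cldn7 belong to gut epithelium, Cldn5 to endothelium, the lining of blood and lymph vessels. Neurons and glia are not known for these simple keratins, so the families serve here as a reading of lining cells in sorted material from the gut wall.

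Values below are deposited log2 expression values. Each run of 6 gives replicates 1 to 3 of the libraries labelled EGFP-positive and then, after "against", replicates 1 to 3 of those labelled EGFP-negative. Of 45101 probe sets, the number above 6 ranged from 6182 to 7621 per library. The 3 TrpnX probe sets, controls for a bacterial transcript, read 1.00 to 1.48 and stand for background. Mapt read 1.43, 1.32 and 5.55 against 1.44, 1.64 and 1.38, so EGFP-positive replicates 1 and 2 went against their label. The 10 measured markers of enteric neurons averaged 3.07, 2.92 and 6.08 against 3.24, 3.30 and 3.59. The 8 measured markers of enteric glia averaged 6.30, 6.00 and 8.12 against 4.61, 5.79 and 5.36. All directions therefore refer to the labels. Same-numbered libraries of both groups deviated together from their group means, with correlations across genes of 0.36, 0.32 and 0.42 for the numbers 1, 2 and 3, so pairs of equal number are also given.

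No keratin or claudin passed the test between the labels. Of the 64 members 0 passed, and 0% of all 18193 genes did (limma, Benjamini-Hochberg adjusted p, threshold 0.05, without and with the replicate number as a block). At an unadjusted limma p under 0.05, 2 members passed, against 4.91% of all genes. The median log2 difference, EGFP-positive minus EGFP-negative, was -0.01 over the members and -0.02 over all genes. Only 13 of the 64 had a mean of at least 4, and 45 stayed under 2.5 in every library. The 13 were Krt7, Krt8, Krt10, Krt14, Krt18, Krt19, Krt20, Cldn3, Cldn5, Cldn7, Cldn10, Cldn12 and Cldn15.

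**Figure D1:**
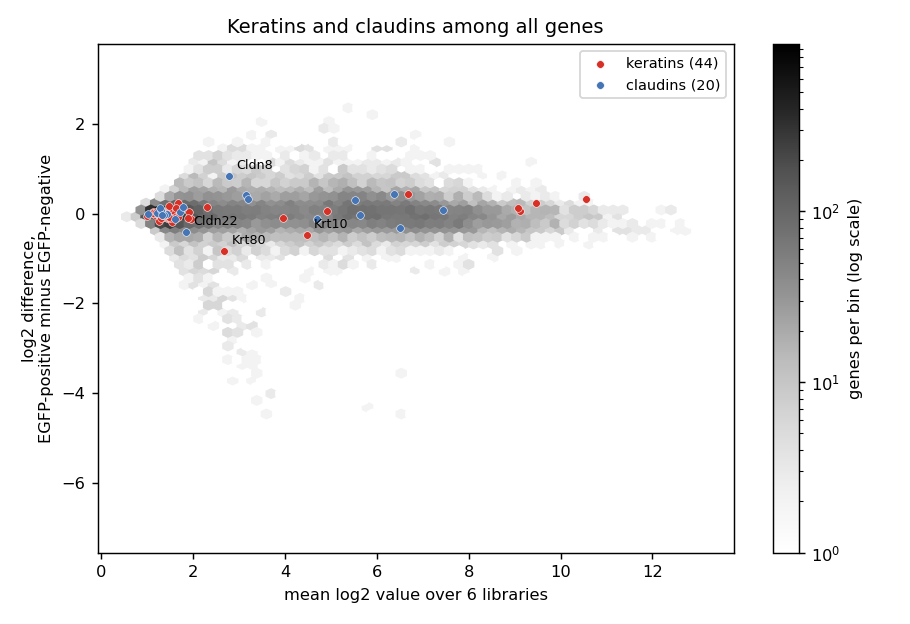
Log2 difference, EGFP-positive minus EGFP-negative, against the mean log2 value over 6 libraries. Grey bins count all 18193 genes on a log colour scale, red points are the 44 keratins and blue points the 20 claudins. The members lie within the cloud of all genes, and Krt80 at -0.85 and Cldn8 at 0.84 are the outermost.

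The simple keratins Krt7, Krt8, Krt18 and Krt19 were strong in every library of both groups, at log2 values of 7.84 to 11.47. Krt8, the type II partner of single-layered epithelia, read 11.47, 11.0001 and 9.67 against 10.89, 10.49 and 9.79. Krt18, its type I partner, read 9.75, 9.50 and 8.15 against 9.82, 9.16 and 8.25. In both genes the groups overlapped, and both libraries numbered 3 lay below the other 4. Krt19, a small type I keratin of simple epithelia and mesothelium, read 10.48, 10.05 and 8.24 against 9.88, 9.62 and 8.54. Krt7, a type II keratin of ducts and mesothelium, read 10.08, 9.44 and 7.84 against 10.24, 8.89 and 7.89. These too were lowest in the libraries numbered 3. In bulk samples such as these, fewer cells of a type and less RNA per cell cannot be told apart.

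The difference between the labels was small beside that spread. For Krt8 it was 0.32 (SE 0.54) on the log2 scale, with a 95% interval of -1.02 to 1.67, and for Krt19 0.24 (SE 0.68), with an interval of -1.46 to 1.94 (limma). For Krt18 it was 0.06 (SE 0.58), and for Krt7 0.12 (SE 0.81). None passed (limma adjusted p = 1.00 for each). The other 2 Krt8 probe sets gave 0.29 and 0.35. Without EGFP-positive replicate 3, in which Mapt read 5.55, the differences were 0.85, 0.91, 0.55 and 0.76 for Krt8, Krt19, Krt18 and Krt7. With it as the only EGFP-positive library they were -0.72, -1.11, -0.92 and -1.16, so the sign of all 4 changed with the EGFP-positive libraries counted. Without EGFP-negative replicate 3 the differences were 0.02, -0.16, -0.36 and -0.44. Within pair 3 itself the EGFP-positive library was lower by little: the differences were -0.12, -0.30, -0.10 and -0.04 for the same 4 genes.

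**Figure D2:**
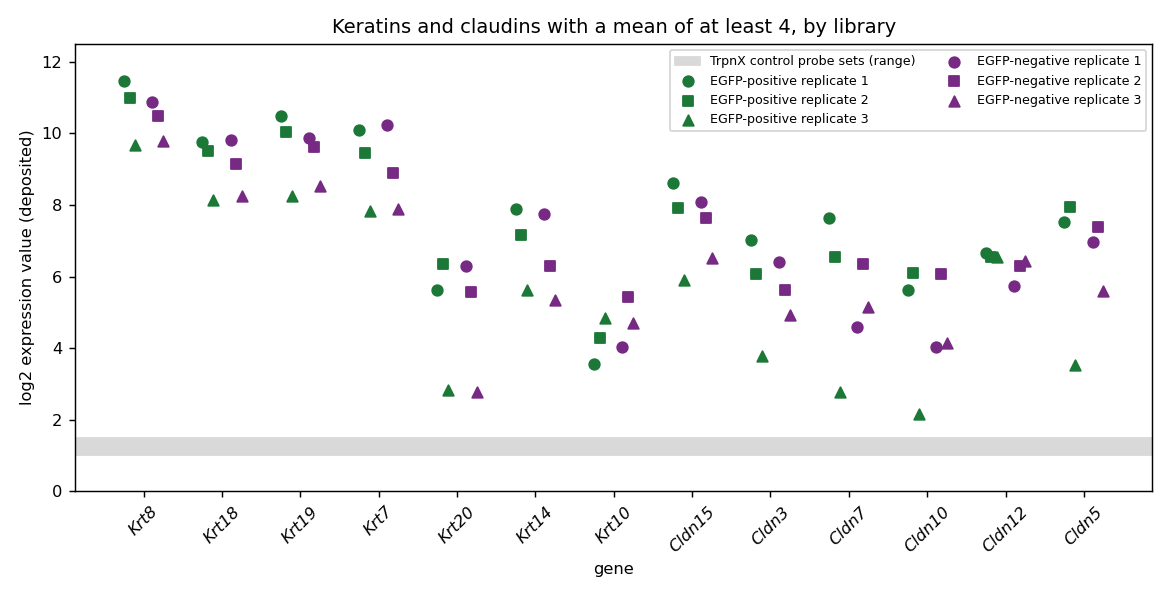
Deposited log2 values of the 13 keratins and claudins with a mean of at least 4, 1 point per library, green for EGFP-positive and purple for EGFP-negative, with the shape giving the replicate number. The grey band is the range of the TrpnX control probe sets, 1.00 to 1.48, and in 9 of the 13 genes both triangles (number 3) lie below the other 4 points.

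Krt8 and Krt18 are neighbours on chromosome 15, with starts 23874 bases apart in GRCm38.p6 as annotated by RefSeq. Both were low in the same libraries, but Krt7 and Krt19 were low there too. By same-numbered pair, Krt18 (-0.07, 0.34, -0.10) had the signs of Krt7 (-0.15, 0.55, -0.04). Krt8 (0.58, 0.51, -0.12) had those of Krt19 (0.60, 0.42, -0.30). Any part of the neighbouring position in these values was not tested. The 250 bases before each start are shown, 5′ to 3′ on the strand of the gene. They lie at chr15:102004343-102004592 (minus strand, Krt8) and chr15:102027966-102028215 (plus strand, Krt18). Krt20 at chr11:99438154-99438403 (minus strand) is given as a keratin of another pattern. Capitals mark matches on either strand to 5 motifs. The letters searched were TATAAA for the box bound by the general transcription machinery near many starts (TATA box), GGGCGG for the box bound by Sp-type factors (GC box), TTTATG for the core of caudal-type factors, CAGGTG for the E2 box of Snail-type repressors, and CCGGAA for the core of ETS-type factors. None of these motifs overlapped another in the windows shown.
Krt8: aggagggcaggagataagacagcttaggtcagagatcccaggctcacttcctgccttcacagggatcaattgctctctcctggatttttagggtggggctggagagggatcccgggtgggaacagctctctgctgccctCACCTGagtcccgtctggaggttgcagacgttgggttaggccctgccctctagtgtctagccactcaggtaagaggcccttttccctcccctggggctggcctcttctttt
Krt18: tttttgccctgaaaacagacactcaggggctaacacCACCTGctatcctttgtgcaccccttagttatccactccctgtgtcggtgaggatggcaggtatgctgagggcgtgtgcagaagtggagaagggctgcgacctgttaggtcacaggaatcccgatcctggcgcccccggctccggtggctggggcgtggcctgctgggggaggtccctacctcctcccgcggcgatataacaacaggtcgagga
Krt20: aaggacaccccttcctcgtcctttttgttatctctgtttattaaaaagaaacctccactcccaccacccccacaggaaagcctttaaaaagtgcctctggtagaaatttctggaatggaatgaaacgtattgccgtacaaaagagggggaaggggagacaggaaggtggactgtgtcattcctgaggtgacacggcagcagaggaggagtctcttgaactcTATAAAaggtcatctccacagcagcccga
Krt8 and Krt18 each held 1 E2 box, on the opposite strand and beginning 111 and 214 bases before the start, a match found in 17.2% of all 32851 RefSeq windows of that length. Krt20 held 1 TATA box, beginning 29 bases before the start, found in 12.4% of the windows. These are matches of letters and were not tested for use.

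The mesothelial markers followed the same order of libraries as the simple keratins. Both libraries numbered 3 lay below the other 4 in all 10 mesothelial markers, in all 4 simple keratins and in 9 of the 13 members with a mean of at least 4, while 7.88% of the 8070 genes of that level showed this. Of the gut epithelium markers with a mean of at least 4, 11 of 13 shared it. EGFP-positive replicate 3 was the lowest library in 9 of the 13, against 23.1% of those genes. By pair, the EGFP-positive library was higher in 9 of the 13 in pair 1 (61.8% of the 8070) and in 12 in pair 2 (43.6%), and lower in 9 in pair 3 (61.4%). The 10 markers averaged 9.08, 8.57 and 6.53 against 8.95, 8.16 and 6.86. Upk3b, a uroplakin of mesothelium, read 11.15, 10.02 and 8.45 against 10.94, 9.63 and 8.52, and Gpm6a, a membrane glycoprotein of mesothelium and neurons, read 10.44, 9.80 and 7.67 against 10.25, 9.24 and 7.74. As a description of likeness, each gene was centred on its own mean and set against the centred mean of a marker list. The root mean square distance of Krt7 over the 6 libraries was 0.21 from the mesothelial list and 0.63 from the gut epithelium list. For Krt19 these distances were 0.26 and 0.46, for Krt18 0.32 and 0.66, and for Krt8 0.40 and 0.64. The distances were not scaled. The centred mesothelial mean ran from 1.06 to -1.49 and that of gut epithelium from 1.57 to -2.03. A gene of small swing can therefore lie nearer the mesothelial list by size alone, so these distances do not tell the 2 lists apart. Because gut epithelium was also lowest in EGFP-positive replicate 3, the 2 linings share part of their order, and the part of each in the keratin signal was not tested.

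Of the other members with a mean of at least 4, Krt14, Cldn15 and Cldn3 lay closest to the mesothelial list by this unscaled distance. For Cldn3 it was 0.29, against 0.39 from the epithelial list. Cldn3 had 4 probe sets, and only the set used was measured this way, so its place between the 2 lists is not settled. Krt14, the type I keratin of basal cells in stratified epithelia, read 7.89, 7.17 and 5.64 against 7.74, 6.31 and 5.34, at a distance of 0.30. Its partner Krt5 stayed between 1.85 and 2.53, so the usual pair of basal epithelium was not seen at the level of these arrays. Of the other Krt14 probe sets, 1 gave a difference of 0.61 (0.44 in the set used) and 1 averaged 1.36, within the background range. The set used is of the _x_at kind, which may detect related transcripts. The set that gave 0.61 is not of that kind. It read 7.44, 6.63 and 4.42 against 6.48, 5.56 and 4.62, with the libraries numbered 3 again lowest. Cldn15, a pore-forming claudin of gut epithelium that is also made by mesothelium, read 8.62, 7.93 and 5.91 against 8.08, 7.64 and 6.51, at a distance of 0.16 from the mesothelial list and 0.36 from the epithelial one. Its difference between the labels was 0.08 (SE 0.80).

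**Figure D3:**
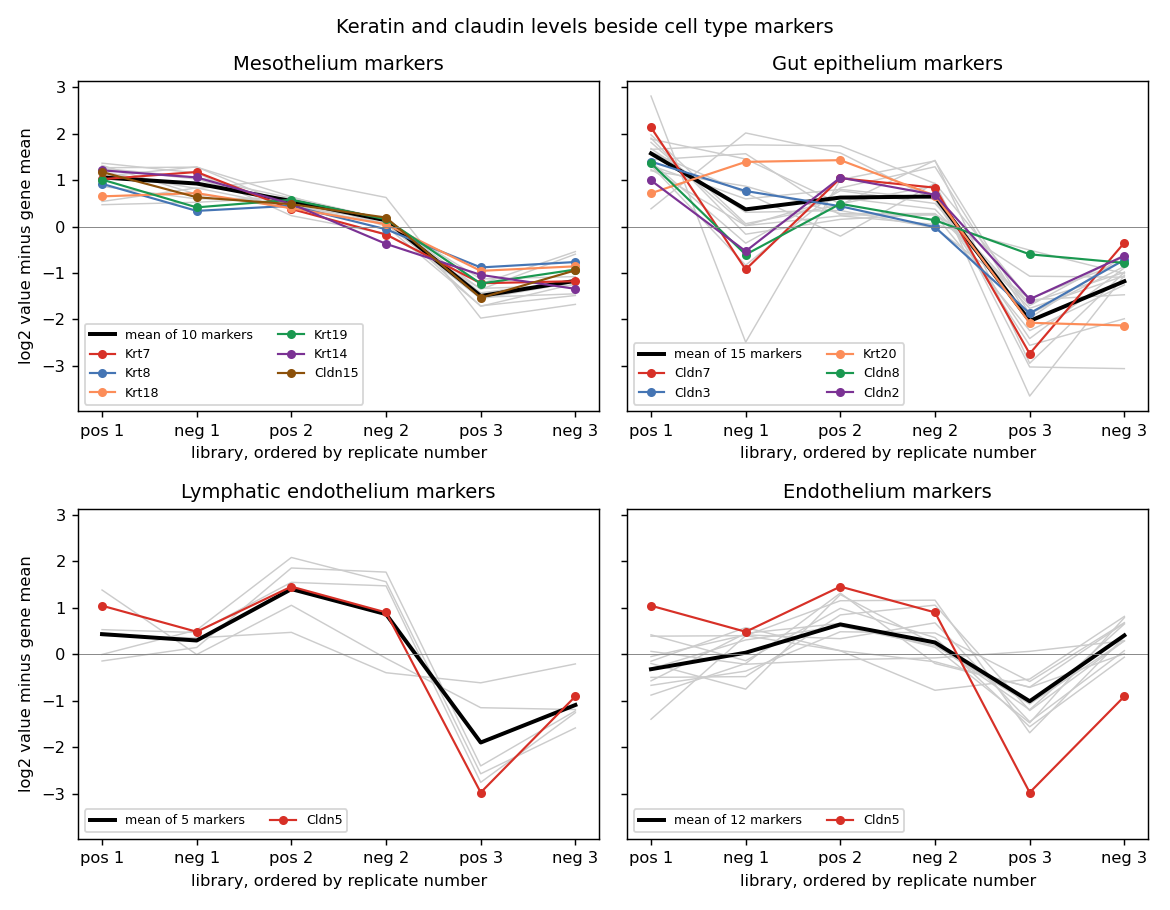
Log2 values minus each gene's mean over the 6 libraries, in the order of the replicate numbers. Grey lines are single markers of each list, black lines their means, and coloured lines keratins and claudins. The simple keratins, Krt14 and Cldn15 run along the mesothelial mean, Cldn7 drops in EGFP-negative replicate 1 and EGFP-positive replicate 3, and Cldn5 lies nearer the lymphatic mean (distance 0.52) than the endothelial mean (1.21).

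Krt20, the keratin of differentiated surface cells of the gut mucosa, shared the fall in the libraries numbered 3, and fell deeper than the simple keratins. It read 5.63, 6.34 and 2.84 against 6.30, 5.58 and 2.78. Both libraries numbered 3 were low, by about the same amount, and the other 4 were close together. The difference between the labels was 0.05 (SE 1.28; 95% interval -3.15 to 3.25). Its distance was 0.75 from the gut epithelium list, 0.66 from the mesothelial and 0.64 from the lymphatic list, so no list lay close to it. The distances were not scaled, so a deeper fall alone makes them larger. Among the 232 genes outside the families with a mean of at least 6 and an SD of at least 1, the closest to it was Car1, a carbonic anhydrase of colonocytes, at 8.68, 9.88 and 5.74 against 10.31, 8.86 and 6.31 (distance 0.36). Next were Muc16, a mucin of mesothelium (0.39), and Slc39a8, a zinc transporter (0.46). Fabp2, a fatty acid binding protein of absorptive cells, read 6.43, 6.51 and 1.75 against 6.53, 5.70 and 1.72.

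Of the 6 gut claudins, Cldn3 and Cldn7 had a mean of at least 4, and Cldn4 and Cldn23 stayed near background. Cldn7, a claudin of the lateral membrane of gut epithelium, read 7.64, 6.55 and 2.78 against 4.59, 6.35 and 5.16. The libraries labelled EGFP-positive held both its highest and its lowest value, and the difference of 0.29 (SE 1.33) had a 95% interval of -3.01 to 3.60. Pair by pair it was 3.06, 0.20 and -2.39. Cldn3, a sealing claudin, read 7.03, 6.07 and 3.77 against 6.40, 5.62 and 4.92, with pair differences of 0.63, 0.45 and -1.15. Its 4 probe sets disagreed, since the set used gave -0.02 over the groups and the others 0.25 to 0.69. Cldn2, the cation-pore claudin of crypts, read 4.17, 4.23 and 1.62 against 2.65, 3.87 and 2.55. Cldn8, a sealing claudin of the distal colon, read 4.15, 3.28 and 2.19 against 2.18, 2.92 and 2.00. It had the highest difference of all members, 0.84 (SE 0.54), which did not pass (limma adjusted p = 1.00). Cldn4, a claudin of surface epithelium, stayed between 1.57 and 2.11, and Cldn23 between 0.97 and 1.57.

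The 6 gut claudins differed by 1.23 on average in pair 1, where all were higher in the EGFP-positive library, though Cldn4 by only 0.01 and Cldn23 by 0.22, both near background. The average was 0.25 in pair 2, with 5 of 6 higher, and -0.65 in pair 3, with 3 of 6 higher. Of all genes with a mean of at least 4, 61.8% were higher in pair 1, 43.6% were higher in pair 2 and 61.4% were lower in pair 3. Only 2 of the 6 claudins had that mean. Both libraries of pair 1 held similar levels of Krt7, Krt18 and Krt14, with differences of -0.15, -0.07 and 0.15, and Krt20 differed by -0.67. In the same pair Muc2, the goblet cell mucin, read 10.60 against 5.30, and Agr2, a secretory cell protein, 8.54 against 6.40, while Car1 read 8.68 against 10.31. The 15 gut epithelium markers averaged 7.51, 6.57 and 3.91 against 6.31, 6.59 and 4.77, and 12 of the 15 were higher in the EGFP-positive library of pair 1, 7 in pair 2 and 3 in pair 3. Of these markers 13 had a mean of at least 4, and the count in pair 2 was near the share of all genes. In pair 2 Muc2 and Agr2 differed by -0.40 and -0.46, against 0.20 for Cldn7. Epcam, an adhesion molecule of all gut epithelium, had the signs of Cldn7 in all 3 pairs, at 1.75, 0.28 and -1.10. Of 10 mesothelial markers 6 were higher in pair 1, which is near the share of all genes, 10 in pair 2 and 0 in pair 3. The same signs therefore also occurred outside gut epithelium. Cldn7 lay at a distance of 0.75 from the gut epithelium list, its nearest, and 1.12 from the mesothelial one, so no list lay close to it. The part of any epithelial cell type in the Cldn7 values was not tested.

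The 250 bases before the start of Cldn7 (chr11:69964529-69964778, plus strand, the first of 2 starts in the table) and of Cldn5 (chr16:18776597-18776846, plus strand) are shown because these 2 claudins had the widest range of values among the members with a mean of at least 4. Capitals mark the same 5 motifs, and the sequences are from RefSeq, GRCm38.p6.
Cldn7: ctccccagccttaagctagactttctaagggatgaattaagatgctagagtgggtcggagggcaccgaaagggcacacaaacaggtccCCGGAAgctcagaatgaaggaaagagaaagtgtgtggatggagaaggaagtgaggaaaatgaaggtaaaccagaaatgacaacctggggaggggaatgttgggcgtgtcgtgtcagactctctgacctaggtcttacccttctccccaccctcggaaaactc
Cldn5: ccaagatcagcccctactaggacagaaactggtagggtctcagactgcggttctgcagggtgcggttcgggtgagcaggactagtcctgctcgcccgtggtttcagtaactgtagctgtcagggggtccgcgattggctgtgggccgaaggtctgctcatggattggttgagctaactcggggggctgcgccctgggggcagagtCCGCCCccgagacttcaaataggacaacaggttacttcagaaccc
Cldn7 held 1 ETS core, beginning 162 bases before the start, which 12.0% of all windows held. Cldn5 held 1 GC box on the opposite strand, beginning 45 bases before the start, which 32.7% of all windows held.

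Cldn5, the main claudin of endothelium, lay at a distance of 0.52 from the lymphatic list, 0.58 from gut epithelium, 0.80 from mesothelium and 1.21 from the general endothelial list. It read 7.54, 7.95 and 3.52 against 6.98, 7.39 and 5.59. EGFP-positive replicate 3 was far below the other 5, and EGFP-negative replicate 3 was the next lowest. The difference between the labels was -0.32 (SE 1.29; 95% interval -3.52 to 2.89), a sign that turned to 0.02 when arrays were centred on ribosomal protein genes. It was 1.09 without EGFP-positive replicate 3 and -3.13 with that library alone against the EGFP-negative group, where 1 library has no spread of its own and is assumed to vary like the EGFP-negative ones (limma adjusted p = 0.449). By pair it was 0.56, 0.56 and -2.07.

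Of the 5 lymphatic markers 4 had a mean of at least 4, and 3 of these had both libraries numbered 3 below the other 4, as Cldn5 did. Of all genes of that level 7.88% did. Of the 10 endothelial markers of that level 0 did, which is near the share of all genes. At that level 11 of 13 gut epithelium and 10 of 10 mesothelial markers did too. Flt4, the receptor of lymphatic growth factors, was the gene closest to Cldn5 among the 232, at 7.56, 8.57 and 4.27 against 7.50, 8.50 and 5.77 (distance 0.36). Next came Tspan1, a tetraspanin of epithelia (0.39), and Klhl4 (0.49). Lyve1, a hyaluronan receptor of lymphatic vessels that macrophages also make, read 8.72, 10.72 and 6.46 against 9.01, 10.63 and 7.65. Pecam1, an adhesion molecule of all endothelium, read 4.71, 5.95 and 3.81 against 5.74, 5.44 and 6.08, and Plvap, of fenestrated blood capillaries, read 7.56, 7.79 and 7.18 against 8.28, 6.93 and 8.52. In both of these EGFP-negative replicate 3 was the highest library. The 12 endothelial markers averaged 5.86, 6.82 and 5.17 against 6.22, 6.43 and 6.59. The list of 5 is short, and Pdpn in it is also made by mesothelium.

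**Figure D4:**
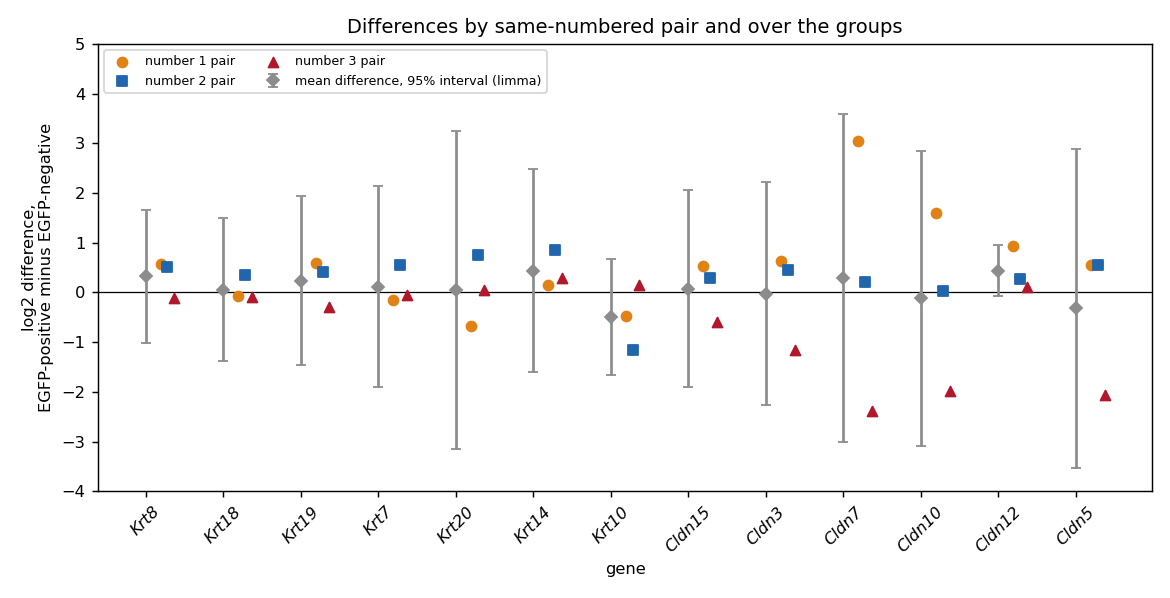
Log2 difference, EGFP-positive minus EGFP-negative, for the 13 members with a mean of at least 4. Grey diamonds with bars are the mean difference and its 95% interval (limma, 3 libraries against 3), and coloured symbols the 3 same-numbered pairs. All intervals span 0, and Cldn5, Cldn7 and Cldn10 lie between -1.98 and -2.39 in pair 3.

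Among members of mixed or other origin, Cldn12 was the one detected gene whose groups did not overlap in the probe set used. Cldn12, a widely made claudin that lacks the usual anchor to the junction scaffold, read 6.67, 6.55 and 6.55 against 5.74, 6.29 and 6.43. The difference was 0.44 (SE 0.21) and did not pass (limma adjusted p = 1.00). Its second probe set gave 0.15, at 5.15, 5.27 and 5.66 against 4.76, 5.44 and 5.42, so there the groups overlapped. In all, 2 members had every EGFP-positive library above every EGFP-negative one, against 3.07% of all genes, and 2 were lower throughout, against 6.04%. Krt24, chosen after its values were seen, was the other higher one, but its 6 values lay between 1.51 and 1.90. The lower ones were Krt80, a type II keratin widespread in epithelia, at 2.48, 2.39 and 1.90 against 3.07, 3.49 and 2.74, and Cldn22, at 1.63, 1.71 and 1.56 against 2.02, 2.01 and 2.10. Krt80 differed by -0.85 (SE 0.26) and Cldn22 by -0.41 (SE 0.11), and neither passed (limma adjusted p = 0.986 and 0.969). Both were dim, so the sizes carry little weight.

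Cldn10, an ion-pore claudin known from kidney and glands, read 5.62, 6.11 and 2.17 against 4.03, 6.07 and 4.14. Its pair differences of 1.59, 0.04 and -1.98 had the signs of those of Cldn7, which Krt8 and Krt19 also had. Cldn1, a sealing claudin of many epithelia, read 3.24, 4.43 and 2.35 against 2.47, 3.97 and 2.38 and was highest in the libraries numbered 2, while its other 3 probe sets averaged 0.85 to 1.17. Krt10, a keratin of upper skin layers, read 3.57, 4.28 and 4.84 against 4.04, 5.42 and 4.69. It was the lowest in EGFP-positive replicate 1, where the simple keratins Krt8 and Krt19 were highest.

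The remaining keratins gave little signal. All 18 measured hair follicle keratins stayed between 0.85 and 2.35. Of 17 measured keratins of stratified epithelia only Krt10 and Krt14 had a mean of at least 4, and Krt42 lay between 3.72 and 4.15 with overlapping groups. Cldn11 and Cldn19, claudins of myelin and nerve sheaths, stayed between 1.11 and 2.07, while the glial markers averaged at least 4.61 in every library. Krt88, in none of the lists of origin, read 1.60 to 2.25.

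The partners of these proteins were read from lists of other genes. Of 15 measured tight junction partners 0 passed (limma adjusted p, against 0% of all genes), and of the 7 with a mean of at least 4, 3 had both libraries numbered 3 below the other 4 (7.88% of all genes of that level). F11r, an adhesion molecule of epithelial junctions, read 8.12, 7.22 and 5.07 against 7.47, 6.85 and 5.91. Tjp1, a junction scaffold made by many cells, read 7.46, 8.37 and 7.94 against 8.13, 8.05 and 7.94 and did not share the fall. Jam2, a junctional adhesion molecule of endothelium and stroma, had a difference of -1.35 (SE 0.52, or 0.12 with the replicate block) and passed in neither fit.

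Of 13 genes of desmosomes and keratin linkers 0 passed, and of the 9 with a mean of at least 4, 5 had both libraries numbered 3 below the others. Dsg2, a desmosomal cadherin of simple epithelia, read 8.82, 8.29 and 6.57 against 8.76, 7.63 and 6.72. Plec, which links several filament types, had its EGFP-positive values above all EGFP-negative ones, at 9.55, 9.26 and 9.18 against 8.77, 8.57 and 8.94, and did not pass (difference 0.57, SE 0.16, limma adjusted p = 0.985). Of 13 epithelial transcription factors 0 passed, and 3 of the 4 with a mean of at least 4 showed that order. Esrp1, an epithelial splicing regulator kept in this list, read 5.64, 4.66 and 0.55 against 2.71, 4.48 and 1.55, with the low values where Cldn7 was low, except that EGFP-negative replicate 3 was lower than replicate 1. Klf5, a factor of crypt cells, read 7.69, 6.56 and 4.59 against 5.18, 6.52 and 5.24.

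Filaments of other cells were read beside the keratins. Of 12 other intermediate filament genes, 8 of them with a mean of at least 4, 0 had both libraries numbered 3 below the other 4. The simple keratins showed this in 4 of 4 and all genes of that level in 7.88%, so the count of 0 is near the share of all genes. Vim, the filament of mesenchymal cells, stayed between 12.13 and 12.73. Des, the filament of muscle, read 8.80, 7.53 and 10.10 against 9.13, 8.02 and 10.52 and was highest in the libraries numbered 3. Gfap, the filament of glia, read 3.63, 2.67 and 6.72 against 2.53, 3.01 and 2.67, and was highest in the library in which Krt8, Cldn5 and Cldn7 were lowest.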

How the data were processed

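Total RNA of sorted cells (about 50 ng) was labelled and hybridised to 1-colour Affymetrix Mouse Genome 430.2 GeneChips, 1 array per library, per the labels' protocols. The deposited values are on a log2 scale. RMA is the tool named in the submitters' processing notes, without a version or settings. The values ran from 0.05 to 15.20. Medians near 2 are unusual for RMA, so differences between dim values carry little weight. No normalisation was added. The number of arrays limits the precision.

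Of 45101 probe sets, 64 controls, 932 with several symbols and 9160 with none in the platform annotation stayed out, which left 34945 probe sets and 18193 genes. Symbols of all 64 members matched the RefSeq table. Of the 14 members with several probe sets, 9 had 1 or more with a difference of opposite sign: Cldn1, Cldn2, Cldn3, Cldn9, Krt4, Krt12, Krt13, Krt14 and Krt17.

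Tests used limma 3.58.1 under R 4.3.3, with lmFit, eBayes and two-sided p-values adjusted by Benjamini-Hochberg over all genes. The code was checked on simulated data with independent genes and a spread capped below that of many members discussed here. That check says nothing of the power at the spread seen. p-values measure the spread of these libraries, 3 a group. SEs and intervals are from the fit without the replicate block unless stated, so they include the spread between replicate numbers. The replicate numbers are in the labels, and whether they mark shared mice is not stated. The correlations of same-numbered libraries (0.32 to 0.42) were all over 0.1, so the numbers were taken as pairs. Those of other numbers ran from -0.41 to -0.01. Deviations from a group mean cancel within the group, so that contrast is partly fixed by construction and adds no support. The members, lists and tests were chosen with earlier results of these data known. The genes named were Krt7, Krt8, Krt18 to Krt20, the claudins of gut, vessels and myelin, all members with a mean of at least 4 or a value of 5, members without overlap that reached 4, and the 3 highest and 3 lowest differences, with, from each other list, the 2 brightest and 2 most different genes as values. Other genes named were chosen after their values were seen, as were the distances to marker lists. Some listed genes outside the families were not analysed here. Figures were drawn with Python 3.11.15 and matplotlib 3.10.9.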

Additional observations from a re-analysis of the deposited data

How the results depend on the processing

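The count of members past the threshold was 0 under every alternative run: 3 other scalings, a filter on dim genes, 2 other choices of probe set, trend and robust variances, array weights, the replicate block and each library left out, and, chosen after seeing the data, EGFP-positive replicates 1 and 2 left out together. Over all genes it was 0 to 2 when 1 library was left out (2 without EGFP-positive replicate 1) and 0 otherwise, and with the replicate block it was 0 with 1345 genes at an unadjusted limma p under 0.05. The replicate block changed no call. The number of members without overlap depended on the setting. Those higher were 2, and 1 with median centring, with genes of at least 4 in 3 libraries and with the mean over all probe sets. They were 29 with arrays centred on ribosomal protein genes, which shifted the median difference of all genes by 0.33, so that this count follows the shift. Those lower were 2, and 1 with that centring and 0 with the filter. Leaving out 1 library gave 2 to 8 higher and 2 to 9 lower. Those higher were 8 without EGFP-positive replicate 3, 6 without EGFP-negative replicate 2, and 4 without EGFP-positive replicate 2 or EGFP-negative replicate 1. Those lower were 9 without EGFP-negative replicate 3 and 4 without EGFP-positive replicate 3, and fewer libraries overlap less by construction. With EGFP-positive replicate 3 alone in its group, 7 were higher and 20 lower, and 1 library against 3 overlaps least of all. The share of all genes without overlap was not counted under these alternatives, so none of these counts is a result about the members. Of 21 named members, the sign of the difference turned in 13 with that library alone, in 10 without EGFP-positive replicate 1 and in 4 with ribosomal centring. It turned in 0 of the alternatives for Krt80, Cldn12 and Cldn22. The low signal of the 45 members under 2.5, and not the test alone, limits what can be read of them.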

Other observations

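Further genes of the lists had these log2 differences, EGFP-positive minus EGFP-negative, and none passed (limma, 3 libraries a group). Among gut epithelium markers, Lgals4, a galectin, had -0.11 (SE 0.85), Tff3, a goblet cell peptide, -0.33 (SE 1.37), and Slc26a3, a chloride exchanger of colonocytes, -0.85 (SE 1.55). Among mesothelial markers, Aldh1a2, which makes retinoic acid, had -0.26 (SE 0.63) and Upk1b, a uroplakin, 0.24 (SE 0.68). Among vessel markers, Esam, an endothelial adhesion molecule, had -0.17 (SE 0.33), Emcn, a sialomucin of capillaries, -1.29 (SE 0.80), and Prox1, the lymphatic transcription factor, 0.86 (SE 0.75).

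Of the genes that work with claudins and keratins, Mpdz, a junction scaffold, had 0.06 (SE 0.42) and Cgn, cingulin, 0.87 (SE 0.85). Eppk1, a keratin-binding plakin, had 0.96 (SE 0.44) and Dsc2, a desmosomal cadherin, 0.85 (SE 0.45). The epithelial factors Hnf4a and Cdx1 had -0.03 (SE 1.05) and 0.66 (SE 0.81), and Nes, the filament nestin, 1.00 (SE 0.41).

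Genes of the nervous cells ran the other way from Krt8 and Cldn5 in EGFP-positive replicate 3. Sox10, a glial transcription factor, read 8.36, 7.56 and 9.75 against 6.28, 7.14 and 6.79, and its groups did not overlap. Erbb3, a neuregulin receptor of glia, differed by 2.02 (SE 0.58), Cdh19, a cadherin of glia, by 2.39 (SE 1.07), and Entpd2, an ectonucleotidase of glia, by 0.55 (SE 0.63), and none of these passed. Snap25, of synaptic vesicle release, read 3.06, 3.89 and 8.41 against 3.57, 5.41 and 5.20. Stmn2 and Uchl1, both of neurons, differed by 0.55 (SE 0.39) and 1.10 (SE 1.12), and neither passed.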
